A study of Rattus norvegicus with 12 samples.

Results

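Transcripts of the heat shock chaperones were followed in the left ventricle of rats that overexpress VEGF-B in the heart. The set was taken by name, as every probe whose gene symbol begins with Hspa, Hspb, Hspd, Hspe, Hsph, Hsp90a, Dnaja, Dnajb or Dnajc, or with Bag, Hsf or Cct followed by a digit. The endoplasmic reticulum genes Hspa5, Dnajb11 and Dnajc3 were left out. This gave 74 of the 22517 probes on the array, for 73 genes, as Hsp90ab1 had 2 probes. The name rule also takes in a few genes outside the cytosol and mitochondria, such as Dnajb9, Dnajc10 and Hspa13, whose proteins reside in the endoplasmic reticulum. It also takes Hspbp1 and Hspbap1, partner proteins that are not small heat shock proteins themselves, and Hsf2bp, a partner of heat shock factor 2.

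The hearts came from 12 male rats of the outbred HsdBrl:WH Wistar background, aged 2 months. The VEGF-B TG group held 6 rats in which the promoter of the alpha myosin heavy chain gene drives the VEGF-B transgene in cardiomyocytes, and the WT group held 6 wildtype littermates without it. The species of the transgene's sequence in these rats is not given in the sources used here, nor is a slide or scan batch. One array per heart was read, on the Illumina RatRef-12 BeadChip, and each heart was 1 replicate.

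Chaperones hold unfolded proteins and help them reach their folded form. HSP70 proteins bind short exposed stretches of a client under the control of J proteins, the products of the Dnaja, Dnajb and Dnajc genes, which start the ATP cycle, and of exchange factors such as the Bag proteins, which end it. HSP90 acts later on signalling clients, small heat shock proteins hold unfolded clients without ATP, and the ring-shaped chaperonins enclose them, with the Cct complex in the cytosol and Hspd1 and Hspe1 in mitochondria. Heat shock factors switch on many of these genes after stress. In heart muscle the small heat shock proteins, above all Cryab and the Hspb family, are abundant and are known for guarding the sarcomere.

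A probe was called detected on an array where its detection p was under 0.05. The count of detected probes ran from 8820 to 9655 in the TG and from 8452 to 9251 in the WT group, and the number of arrays limits the precision. A probe was tested if it was detected on at least 6 of the 12 arrays, which held for 9054 probes. The Vegfb probe was detected on every array, at log2 values between 5.99 and 8.58 in TG and between 6.42 and 10.10 in WT hearts (difference -1.04, SE 0.58, limma, adjusted p = 0.227). Whether it reads the transgene's transcript is not given, so it does not check the labels. The summed level of the cardiomyocyte markers lay between 145620 and 152977 in TG and between 143482 and 155044 in WT hearts. Not every probe was bright. Actc1 had mean log2 values of 7.77 in TG and 7.87 in WT hearts, and a Ryr2 probe (ILMN_1357968) was detected on 0 arrays. Of 12 tested probes, 2 were lower in TG, for Myl2 and Ryr2 (ILMN_1361942, limma, adjusted p = 0.0117). The other tested Ryr2 probes did not pass (0.0514 and 0.416). By contrast, 7 of 9 tested endothelial probes and 6 of 6 tested pericyte probes were higher in TG hearts. The summed endothelial level lay between 12582 and 14393 in TG and between 8039 and 9644 in WT hearts, the summed pericyte level between 5706 and 6930 against 4198 to 4766, and Robo4 was detected on 0 arrays. Both tested macrophage probes, for Aif1 and Cd14, were higher as well. Only 3 of the 6 listed macrophage genes had a named probe, and that of Ptprc was detected on 1 array. Among the fibroblast probes 1 of 6, for Pdgfra, was lower. The part of these shifts in the differences below was not tested.

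Of the 74 probes, 56 were tested, 52 were detected on all 12 arrays and 13 on none. Those at background on every array included the stress-inducible HSP70 gene Hspa1b, the HSP110 gene Hsph1 and both probes of the constitutive HSP90 gene Hsp90ab1, so these arrays give no level for them. The other probes detected on 0 arrays were those of Hspa12a, Hspb9, Dnajb8, Dnajb12, Dnajc5b, Dnajc5g, Dnajc6, Dnajc16 and Hsf2bp. Hspa2, Hspa4, Dnajb13, Dnajc8 and Dnajc27 were detected on too few arrays to be tested. No probe used here carried the symbol Hspa1a, Hspa8 or Hsf1.

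In the TG hearts, 9 of the 56 tested probes were lower than in WT (Hspb3, Hsf4, Dnajb1, Bag2, Dnajb6, Dnajc28, Dnajc21, Dnajc19 and Hspb7) and 2 were higher (Hspa12b and Hsp90aa1), at an adjusted p under 0.05 in limma with Benjamini-Hochberg adjustment over all tested probes. The 11 calls make 19.6% of the tested chaperone probes, beside 21.9% over all tested probes. The lower calls make 16.1% of the chaperone probes beside a background of 10.3%, and the higher calls 3.57% beside 11.6%. With median scaling of the arrays the share of higher calls among all called probes moved from 53.0% to 65.0%, and 3 chaperone probes were then called lower and 2 higher. That is 5.36% of the chaperone probes lower beside 4.96% of all tested probes, and 3.57% higher beside 9.20%. The differences were small as a rule. Their median was -0.07 on the log2 scale (TG minus WT, as are all differences given here), against -0.01 over all tested probes, with 35 differences below 0 and 21 above. Differences below 0 were thus 62.5% of the chaperone probes and 51.7% of all tested probes. The median size of a difference, without its sign, was 0.13 for the chaperones and 0.14 for all tested probes. Differences over 0.5 were seen for 3 probes only, Hspb3, Hsf4 and Dnajb1. In 5 probes (Hspb3, Hspb7, Dnajb6, Dnajc19 and Hsf4) the 2 groups of hearts did not overlap, which is 8.93% of the chaperone probes beside 10.8% of all tested probes. In whole-ventricle RNA, fewer cells of a type and less of a transcript per cell cannot be told apart.

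**Figure D1:**
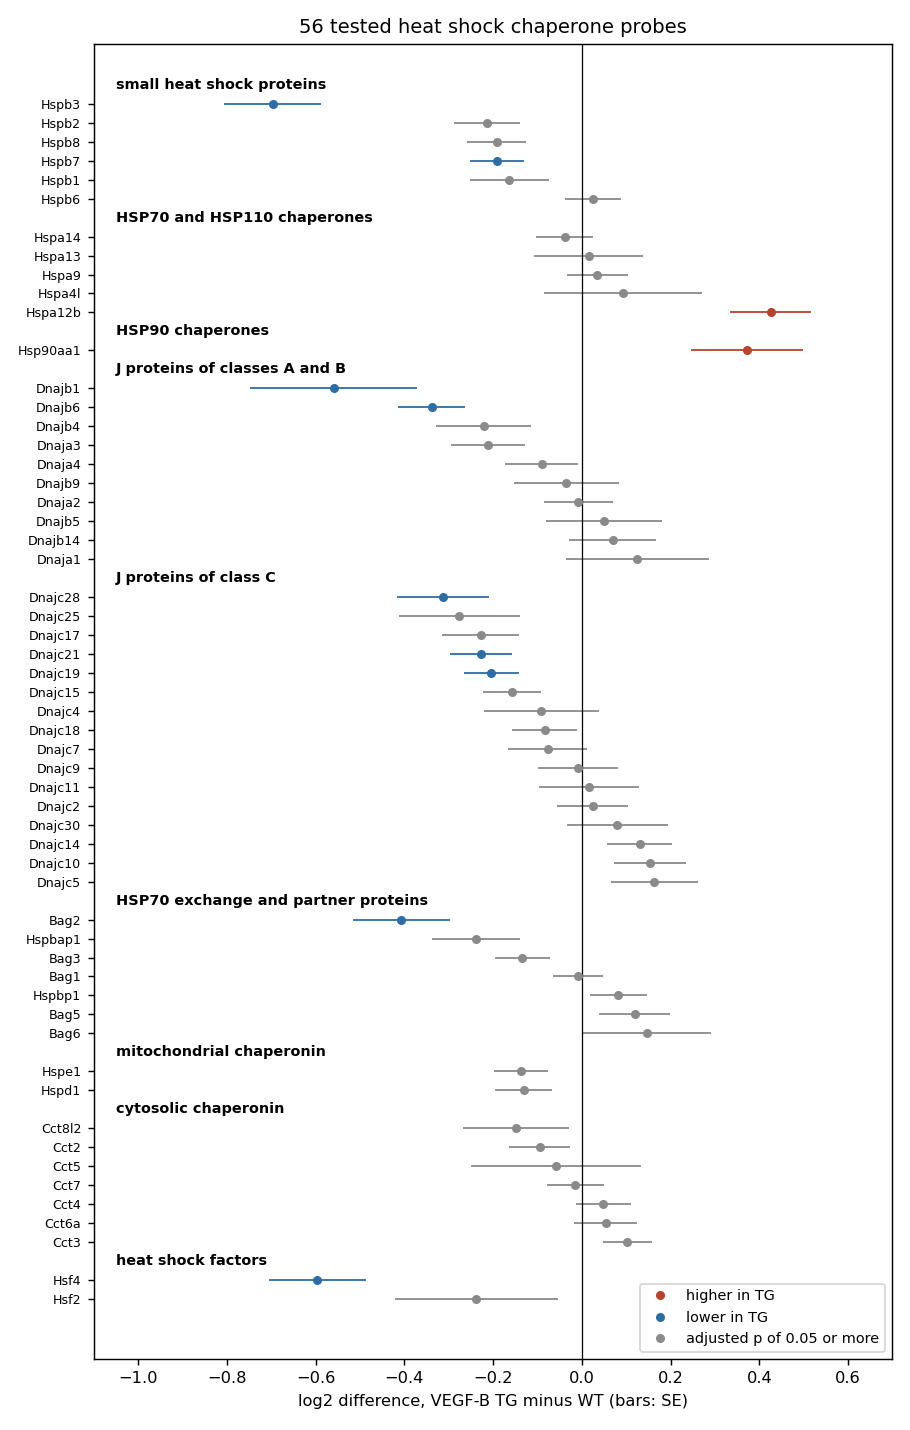
Log2 difference (VEGF-B TG minus WT, horizontal axis) of each of the 56 tested chaperone probes, grouped by role, with bars showing 1 SE from limma and 6 hearts per group. Blue points are the 9 probes lower in TG, red points the 2 higher, and grey points did not pass the adjusted p threshold of 0.05; Hspb3, Hsf4 and Dnajb1 lie farthest to the left.

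The small heat shock proteins held the largest difference of the set. Hspb3, a muscle member that forms a complex with Hspb2, had log2 values of 10.27, 10.88, 10.47, 10.39, 10.36 and 10.03 in TG hearts 1 to 6, and of 11.08, 11.0045, 11.05, 11.22, 11.10 and 11.13 in WT hearts 1 to 6. Every TG heart lay below every WT heart, and the TG hearts were more spread (SD 0.28) than the WT hearts (SD 0.07, n = 6 in each group). The Hspb3 probe (ILMN_1361179) fell by 0.70 on the log2 scale (SE 0.11, 95% interval -0.93 to -0.46), which is a 1.62-fold higher level in WT (limma, adjusted p = 4.46e-04). It passed the test in each of the 10 other settings with all arrays and in each of the 12 fits without 1 array.

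Hspb7, a small heat shock protein enriched in heart and skeletal muscle that binds filamin C, differed far less but without overlap. Its values ran from 12.86 through a median of 13.003 to 13.05 in TG hearts and from 13.06 through 13.17 to 13.27 in WT hearts. The highest TG heart was thus just under the lowest WT heart. The Hspb7 probe (ILMN_1372382) fell by 0.19 (SE 0.06, limma, adjusted p = 0.0361), or 1.14-fold higher in WT. The exact permutation test over the 924 ways to divide the hearts gave the smallest p it can give, 0.00216 (two-sided). Among the scalings and the fits without 1 array, the limma call was lost with median scaling (adjusted p = 0.250) and without TG heart 2 or 6 or WT heart 1, 3, 4 or 6 (0.0590 to 0.0777).

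The other small heat shock proteins did not pass the test. Hspb8, which works with Bag3 in the selective autophagy of damaged sarcomere proteins, ran from 11.49 (median 11.57) to 11.80 in TG and from 11.65 (median 11.80) to 11.84 in WT hearts, a difference of -0.19 (SE 0.07, limma, adjusted p = 0.0522). It passed without TG heart 1 (0.0161) or WT heart 5 (0.0363), the highest TG and the lowest WT heart. Hspb2, which is encoded beside Cryab, ran from 10.05 (median 10.13) to 10.33 in TG and from 10.20 (median 10.36) to 10.51 in WT hearts, a difference of -0.21 (SE 0.07, limma, adjusted p = 0.0525), and it passed without TG heart 3 (0.0276) or WT heart 2 (0.0320). Hspb2 is also on a list of lower genes that the study drew in part from these arrays, so its direction here is not independent of that list. Both lay close to the threshold: of the 10 other settings with all arrays, Hspb8 passed in 8 and Hspb2 in 7, among them the log2 table that the authors deposited (adjusted p = 0.0209 and 0.0301). Hspb1, which binds actin and is phosphorylated under stress, had a difference of -0.16 (SE 0.09, limma, adjusted p = 0.216). Hspb6, the brightest Hspb probe, ran from 14.76 to 14.97 in TG and from 14.75 to 14.95 in WT hearts, with groups that overlapped almost wholly (difference 0.03, 95% interval -0.11 to 0.16). Over the 6 tested small heat shock proteins, 2 (33.3%) were lower and 0 higher, with a median difference of -0.19. The shares over all tested probes were 10.3% lower and 11.6% higher, and the count was not tested against them. The related Cryab, outside the naming rule, had a difference of 0.05 (SE 0.06).

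**Figure D2:**
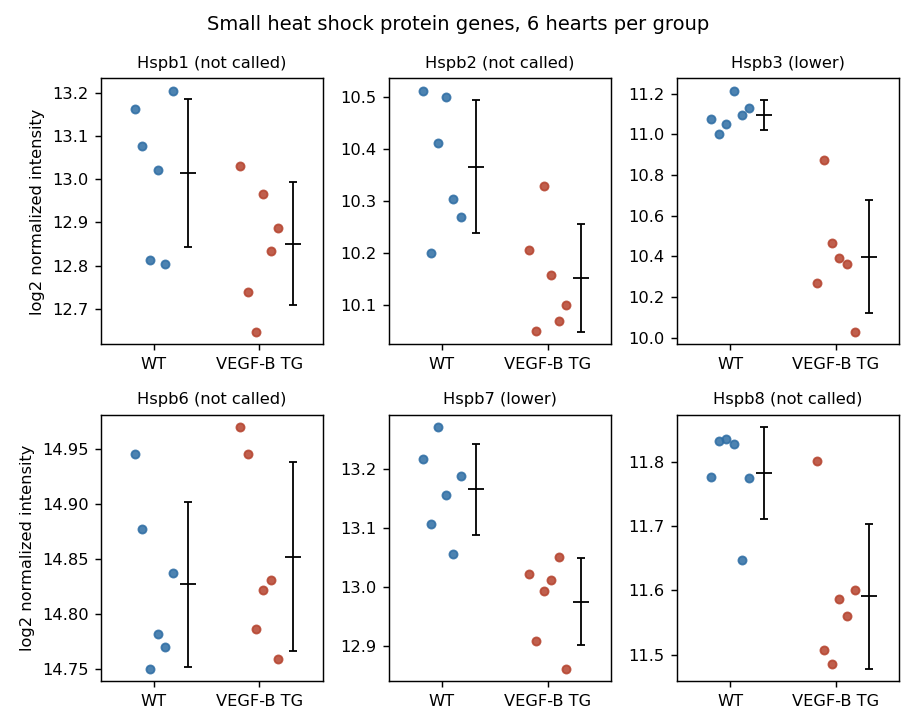
Log2 normalized intensity of the 6 tested small heat shock protein genes, 1 point per heart for 6 WT and 6 VEGF-B TG hearts, with mean and SD beside the points; the vertical axes differ between panels. Hspb3 and Hspb7 show no overlap between the groups, while Hspb6 spans about the same range in both.

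Among the J proteins of classes A and B, which recruit HSP70 to unfolded clients, 2 of 10 tested probes (20%) were lower and 0 higher. This stands beside 10.3% lower and 11.6% higher over all tested probes, and was not tested against them. Dnajb1, the main heat-inducible J protein of the cytosol and a textbook target of heat shock factor 1, had log2 values of 9.39, 9.48, 9.26, 9.78, 10.41 and 10.06 in TG hearts 1 to 6. The WT hearts 1 to 6 had 9.96, 10.54, 10.15, 10.11, 10.77 and 10.20. TG hearts 1 to 4 lay below all WT hearts, whereas TG hearts 5 and 6 lay among them. The Dnajb1 probe (ILMN_1369706) fell by 0.56 (SE 0.19, 95% interval -0.96 to -0.16), or 1.47-fold higher in WT (limma, adjusted p = 0.0467). The exact permutation test gave 0.0346 (two-sided). The limma call was lost without TG heart 1, 2, 3 or 4 or without WT heart 2, 3, 4, 5 or 6 (adjusted p between 0.0581 and 0.0968), and with median scaling, cyclic loess, no filter, or trend and robust variances (0.0517 to 0.130).

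Dnajb6, which keeps aggregation-prone proteins soluble and is mutated in a human limb-girdle muscular dystrophy, had a smaller but steadier difference. It ran from 10.81 through a median of 10.83 to 10.96 in TG hearts and from 10.995 through 11.17 to 11.48 in WT hearts. The groups did not overlap, with 5 of the TG hearts within a narrow band and TG heart 1 just under the lowest WT heart. The Dnajb6 probe (ILMN_1370974) fell by 0.34 (SE 0.08, limma, adjusted p = 0.0056), or 1.26-fold higher in WT, and it passed in all 10 other settings and all 12 fits without 1 array. Dnaja3, the J protein of the mitochondrial matrix, had a difference of -0.21 (SE 0.08, limma, adjusted p = 0.0820). Dnaja4, the brightest Dnaja probe, had a difference of -0.09 (SE 0.08), with a range of 12.19 to 12.53 in TG and 12.15 to 12.54 in WT hearts. Dnaja1, the abundant cytosolic class A protein, lay at 0.12 (SE 0.16, 95% interval -0.22 to 0.47).

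Heat shock factors bind inverted repeats of the 5 bases nGAAn, so the windows before the genes were searched for GAANNTTC and TTCNNGAA, each of which reads the same on both strands, and for triple units, in which 3 alternating GAA and TTC blocks, starting with either, stand 2 bases apart. A window can hold both short motifs, and each triple unit holds both of them. RefSeq windows of the GRCr8 build, from 250 bases before to 50 bases after the gene's start, were found for 61 of the 73 genes, in 62 windows. At least 1 short motif was found in 20 of the 62 windows (32.3%) and in 15.9% of the 33469 windows of all genes. A triple unit was found in 5 (8.06%), those of Cct4, Dnaja1, Hspd1, Hspe1 and Hsph1, against 0.798% of all windows. Hspd1 and Hspe1 start from one shared stretch in opposite directions, so their windows hold the same overlapping triple units. Of the 9 called genes with a window, 2 held a motif, Dnajb1 at positions -11 and 17 and Dnajb6 at -162, counted from the gene's first base as 0. A match in these letters is no proof of binding, and no match says only that these letters are absent from the window. The 250 bases before the start are shown for the called genes with a match, and for Hspe1 as an example of overlapping triple units. They are also shown for Hspb3, the most changed gene, which had no match. Capitals mark the motif, and each sequence runs toward the gene.
Dnajb1 (chr19:41431142-41431391, minus strand): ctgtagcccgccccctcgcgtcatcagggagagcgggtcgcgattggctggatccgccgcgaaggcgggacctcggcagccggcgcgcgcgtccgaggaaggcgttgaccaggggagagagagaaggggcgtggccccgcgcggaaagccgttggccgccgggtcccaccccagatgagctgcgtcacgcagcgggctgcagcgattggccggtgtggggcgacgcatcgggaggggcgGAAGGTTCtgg
Dnajb6 (chr4:6232005-6232254, minus strand): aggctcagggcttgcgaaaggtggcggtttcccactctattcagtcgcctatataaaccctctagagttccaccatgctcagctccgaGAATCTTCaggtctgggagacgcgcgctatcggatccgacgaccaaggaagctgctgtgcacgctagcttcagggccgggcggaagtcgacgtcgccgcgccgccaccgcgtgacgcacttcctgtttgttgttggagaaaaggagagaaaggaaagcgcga
Hspe1 (chr9:64084077-64084326, plus strand): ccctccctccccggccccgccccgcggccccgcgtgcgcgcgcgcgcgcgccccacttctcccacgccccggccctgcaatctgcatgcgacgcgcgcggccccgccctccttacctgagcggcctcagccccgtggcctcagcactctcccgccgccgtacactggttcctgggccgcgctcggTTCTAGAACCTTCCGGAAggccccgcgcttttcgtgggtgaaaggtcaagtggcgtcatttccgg
Hspb3 (chr2:47029166-47029415, minus strand): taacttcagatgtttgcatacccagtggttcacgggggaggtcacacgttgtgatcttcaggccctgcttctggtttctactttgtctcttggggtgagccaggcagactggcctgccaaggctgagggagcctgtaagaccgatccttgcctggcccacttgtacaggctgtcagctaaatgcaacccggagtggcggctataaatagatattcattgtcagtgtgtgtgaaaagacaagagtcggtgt

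Among the 16 tested class C J proteins, a mixed group that shares little beyond the J domain, 3 (18.8%) were lower and 0 higher. All tested probes had 10.3% lower and 11.6% higher, and the count was not tested against these shares. Dnajc19, a protein of the inner mitochondrial membrane whose loss causes a dilated cardiomyopathy in people, ran from 10.75 through a median of 10.87 to 10.90 in TG and from 10.91 through 11.08 to 11.13 in WT hearts. These groups did not overlap, although the highest TG and the lowest WT heart nearly met. The Dnajc19 probe (ILMN_1365131) fell by 0.20 (SE 0.06, limma, adjusted p = 0.0299), or 1.15-fold higher in WT. Among the scalings and the fits without 1 array, its call was lost with median scaling (0.250) and without TG heart 1, 5 or 6 or WT heart 1, 4, 5 or 6 (0.0508 to 0.0659).

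Dnajc21, a J protein of ribosome assembly, ran from 9.12 (median 9.35) to 9.49 in TG and from 9.47 (median 9.55) to 9.64 in WT hearts. The highest TG heart lay just inside the WT range, and the other TG hearts lay below it. The Dnajc21 probe (ILMN_1362787) fell by 0.23 (SE 0.07, limma, adjusted p = 0.0318), and among the same settings its call was lost with median scaling (0.348) and without TG heart 1 or 5 or WT heart 4, 5 or 6 (0.0522 to 0.0652). Dnajc28, a little-studied J protein assigned to mitochondria, was detected on 3 TG and 4 WT arrays. It ran from 5.66 (median 5.88) to 6.14 in TG and from 5.93 (median 6.25) to 6.43 in WT hearts, so the groups overlapped close to background. Its difference of -0.31 (SE 0.10, limma, adjusted p = 0.0438) was -0.15 without background correction (0.0636), and the call was lost in 4 of the 9 other settings with all arrays that tested it. It was also lost without TG heart 2, 4, 5 or 6 or WT heart 1, 2, 3 or 5 (0.0604 to 0.0949). Dnajc17, a nuclear J protein with an RNA-binding domain (-0.23, SE 0.09), and Dnajc15, a mitochondrial one (-0.16, SE 0.07), did not pass (limma, adjusted p = 0.0735 and 0.104).

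In the HSP70 and HSP110 group, 1 of 5 tested probes (20%) was higher and 0 were lower, beside 11.6% higher and 10.3% lower over all tested probes. Hspa12b is a distant relative of HSP70 known from endothelial cells, where it takes part in vessel growth. Its values ran from 9.47 (median 9.75) to 9.82 in TG and from 8.96 (median 9.30) to 9.47 in WT hearts. The lowest TG heart and the highest WT heart fell on about the same value, with the other hearts apart. The Hspa12b probe (ILMN_1366436) was higher in TG by 0.43 (SE 0.09, limma, adjusted p = 0.0044), or 1.34-fold, in all 10 other settings and all 12 fits without 1 array. Beside it stands the endothelial list, with a median difference of 0.60 and 7 of 9 tested probes higher, and the part of that shift in the Hspa12b difference was not tested. Hspa9, the HSP70 of the mitochondrial matrix and the brightest of the group, ran from 13.32 to 13.52 in TG and from 13.17 to 13.54 in WT hearts (difference 0.04, 95% interval -0.11 to 0.18). The other tested relatives, Hspa4l, Hspa13 and Hspa14, had differences between -0.04 and 0.09.

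Hsp90aa1, the stress-inducible cytosolic HSP90, ran from 7.86 (median 8.04) to 8.53 in TG and from 7.38 (median 7.76) to 8.10 in WT hearts. The groups overlapped, with WT heart 5 above most TG hearts. The Hsp90aa1 probe (ILMN_1358144) was higher in TG by 0.37 (SE 0.13, 95% interval 0.10 to 0.64, limma, adjusted p = 0.0479), or 1.29-fold. Without background correction its difference was 0.24 (limma, adjusted p = 0.0419). In the main fit the Hsp90aa1 call was the nearest to the threshold. It was lost with array weights (0.0575), without a filter (0.0977) and without any 1 array other than TG heart 3 or WT heart 5 (0.0525 to 0.1003).

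Of the 7 tested HSP70 exchange factors and partner proteins, 1 (14.3%) was lower, beside 10.3% of all tested probes. Bag2, which restrains the ubiquitin ligase Stub1 on HSP70 clients, ran from 6.77 (median 7.21) to 7.57 in TG and from 7.51 (median 7.61) to 7.76 in WT hearts. A single TG heart reached into the WT range. The Bag2 probe (ILMN_1366634) fell by 0.41 (SE 0.11, limma, adjusted p = 0.0156), or 1.33-fold higher in WT. Without background correction its difference was -0.23 (limma, adjusted p = 0.0137). The probe passed without each array in turn, and lost the call with median scaling (0.0720). Bag3, the partner of Hspb8 and the brightest Bag probe, ran from 12.97 (median 13.10) to 13.17 in TG and from 13.14 (median 13.20) to 13.34 in WT hearts, a difference of -0.13 (SE 0.06, limma, adjusted p = 0.138). Bag1, Bag5, Bag6 and Hspbp1 had differences between -0.01 and 0.15. Hspbap1 had -0.24 (SE 0.10, limma, adjusted p = 0.105), and -0.11 without background correction.

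**Figure D3:**
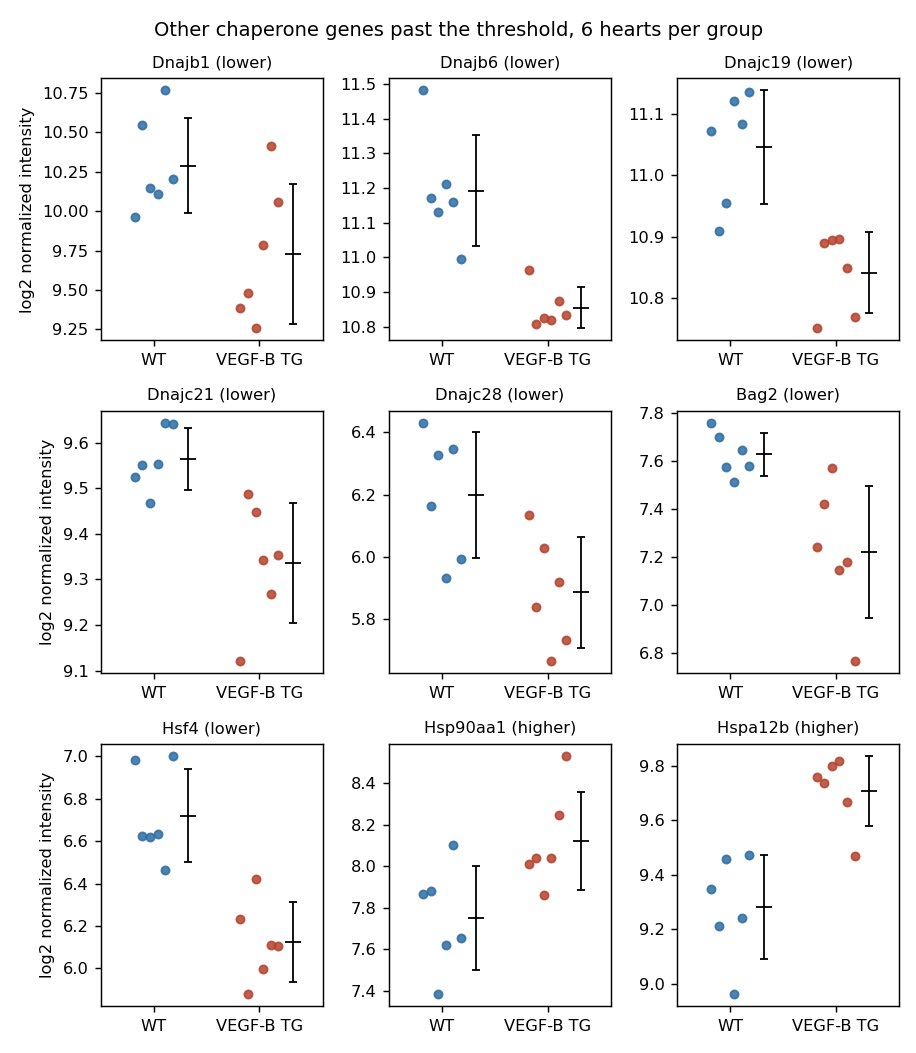
Log2 normalized intensity of the 9 chaperone probes past the threshold other than the small heat shock proteins, 1 point per heart for 6 WT and 6 VEGF-B TG hearts, with mean and SD beside the points; the vertical axes differ between panels. Dnajb6, Dnajc19 and Hsf4 show no overlap, Dnajb1 has TG hearts within the WT range, and Hsp90aa1 and Hspa12b are higher in TG.

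Neither chaperonin passed the test. The mitochondrial pair, Hspd1 (the ring) and Hspe1 (its lid), had near equal differences of -0.13 (SE 0.06) and -0.14 (SE 0.06), with adjusted p values of 0.165 and 0.125 in limma. Hspd1 ran from 13.18 to 13.45 in TG and from 13.37 to 13.58 in WT hearts, and Hspe1 from 10.69 to 10.90 and from 10.84 to 11.04. None of the 7 tested Cct probes passed in limma, with a smallest adjusted p of 0.209 and 0 probes at an unadjusted p under 0.05. Their differences lay between -0.15, for Cct8l2, a relative of a ring subunit detected on 3 arrays of each group, and 0.10, for Cct3. The brightest, Cct4, ran from 12.08 to 12.30 in TG and from 12.05 to 12.25 in WT hearts (difference 0.05, 95% interval -0.08 to 0.18). Among the 9 members assigned to mitochondria (Hspa9, Hspd1, Hspe1, Dnaja3, Dnajc11, Dnajc15, Dnajc19, Dnajc28 and Dnajc30), 2 were lower and 0 higher, with a median of -0.14 and 6 differences below 0. The lower calls make 22.2% of them, and were not tested against the background. Over all tested probes 10.3% were lower, 11.6% higher and 51.7% below 0. With median scaling 0 of these members were lower, and without background correction 1 was.

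Of the heat shock factors, Hsf4 and Hsf2 were tested. Hsf4, known best from the lens, where its mutation causes cataract, ran from 5.88 (median 6.11) to 6.42 in TG and from 6.46 (median 6.63) to 7.003 in WT hearts. The groups did not overlap, at a low signal that was nevertheless detected on all 12 arrays. The Hsf4 probe (ILMN_1362609) fell by 0.60 (SE 0.11, limma, adjusted p = 0.0015), or 1.51-fold higher in WT, and by 0.27 without background correction (adjusted p = 0.0026). It passed in each of the 9 other settings that tested it and in all 12 fits without 1 array. Hsf2, a factor of development that can pair with Hsf1, had a wide spread, from 6.36 to 7.54 in TG and from 6.83 to 7.73 in WT hearts (difference -0.24, 95% interval -0.63 to 0.15).

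Dnajb1 varied widely between hearts of a group (SD 0.44 in TG and 0.30 in WT, n = 6 each), and the relation of other stress-inducible members to it was examined within each group. Of the 12 genes listed for this, 7 had a tested probe (Hsp90aa1, Hspb1, Dnaja1, Dnajb4, Bag3, Hspd1 and Hspe1), which gave 14 relations of 6 hearts each. The smallest p that 6 hearts can give is 0.00278. None passed after adjustment over the 14 relations, and 1 had an unadjusted exact p under 0.05 for Pearson's r. That was Dnaja1 within the TG hearts, with r = 0.93 (exact permutation p = 0.0111, adjusted 0.156) and Spearman's rho = 0.94 (exact p = 0.0167, adjusted 0.233). TG hearts 5 and 6 were high for both genes, and without the 2 hearts farthest from the median Dnajb1 level r was 0.63. Within the WT hearts Dnaja1 gave r = 0.75 (exact permutation p = 0.119, adjusted 0.498) and rho = 0.49 (exact p = 0.356, adjusted 0.711), and r was -0.90 without the 2 farthest hearts. Hsp90aa1 gave r = 0.76 in TG (exact permutation p = 0.117, adjusted 0.498; rho = 0.89, exact p = 0.0333, adjusted 0.233; r = 0.72 without the 2 farthest hearts). In WT hearts Hsp90aa1 gave r = 0.65 (exact permutation p = 0.178, adjusted 0.498) and rho = 0.60 (exact p = 0.242, adjusted 0.677), and r was -0.69 without the 2 farthest hearts. The r values without the 2 farthest hearts come from few hearts, so what each relation rested on cannot be told from them. Over the 7 genes the median r was 0.38 in TG and 0.09 in WT hearts, and median scaling moved these to 0.85 and 0.67.

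**Figure D4:**
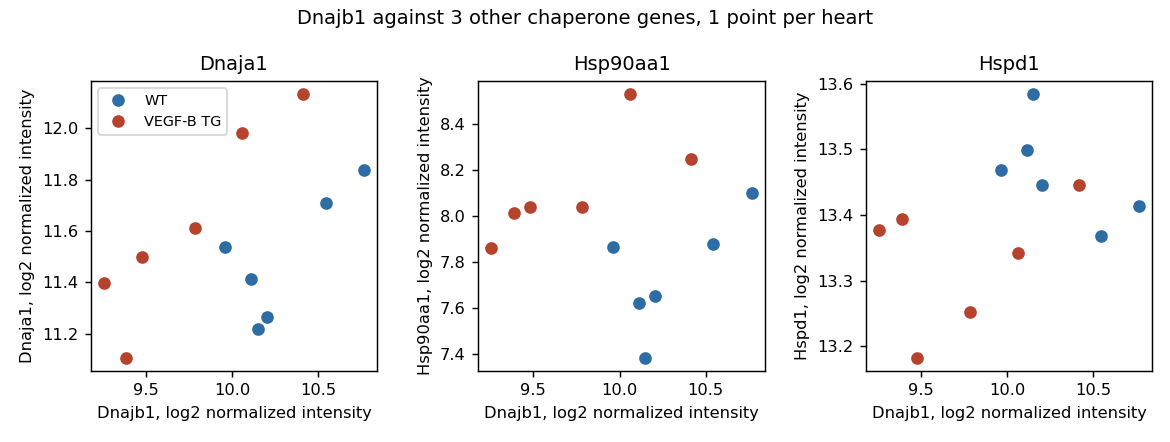
Log2 normalized intensity of Dnaja1, Hsp90aa1 and Hspd1 (vertical axes) against that of Dnajb1 (horizontal axes), 1 point per heart, 6 WT in blue and 6 VEGF-B TG in red. The TG hearts with the highest Dnajb1 also had the highest Dnaja1, and no relation passed after adjustment over the 14 tested.

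The wider chaperone system was counted in the same fit, in which 10.3% of all tested probes were lower and 11.6% higher. The counts of these short lists were not tested against those shares. Of 19 tested probes for HSP90 and HSP70 cochaperones, 4 were lower and 1 higher. Ppp5c, the phosphatase that rides on HSP90, had the smallest p (difference -0.69, SE 0.09, limma, adjusted p = 1.08e-04). Its signal was low, though detected on all 12 arrays, with mean log2 values of 6.26 in TG and 6.95 in WT hearts. How its size depends on the background correction is not given here. Also lower were the muscle cochaperones Itgb1bp2 (-0.23, SE 0.06), known as melusin, and Unc45b (-0.30, SE 0.09), the myosin-folding partner of HSP90. Fkbp5 (-0.46, SE 0.15), the glucocorticoid-induced partner of the steroid receptor complex, was lower too, while Sgta (0.20, SE 0.06) was higher. Of 13 tested mitochondrial chaperone and protease probes, Clpb, a disaggregase, was lower (-0.46, SE 0.08) and Iscu, the iron-sulphur cluster scaffold, was higher (0.41, SE 0.08). Of 7 probes for chaperonin partners, Pdcl was higher (0.32, SE 0.09). A list of other heat shock factor targets and related genes had 7 tested probes, of which 1 was higher and 0 lower. That was Hmox1, heme oxygenase, higher by 1.28 (SE 0.23, limma, adjusted p = 0.0015).

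The endoplasmic reticulum chaperones that the naming rule leaves out had differences on the other side of 0. Of 15 tested probes 3 were higher and 0 lower, with a median of 0.18. Over all tested probes 11.6% were higher and 10.3% lower, with a median of -0.01. Dnajb11 was higher by 0.24 (SE 0.07), Sdf2l1 by 0.27 (SE 0.08) and Hsp90b1, the HSP90 of that compartment, by 0.24 (SE 0.08). The difference between this list and the cytosolic and mitochondrial genes was not tested.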

How the data were processed

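RNA of 12 hearts was read on 1 array each, and the sample titles gave the group and number of each heart. The authors deposited bead intensities summarized in GenomeStudio, neither normalized nor background subtracted (lowest value 100.5), each with a detection p-value against the negative control beads. The authors also deposited a log2 table, quantile normalized in Chipster, and quantile values computed here from the intensities differed from it by at most 0.00883. Tool versions of the authors are not given in the sources used here.

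The intensities were background corrected here with neqc of limma 3.58.1 (R 4.3.3; background from the detection p-values, offset 16), followed by quantile normalization and log2. Probes detected (p under 0.05) on at least 6 arrays entered lmFit and eBayes, with Benjamini-Hochberg adjustment over all 9054 probes. Single values and relations were examined with exact permutation tests, two-sided (scipy 1.17.1). The fit was tested on simulated data. Probes were named from the platform annotation (13787 with 1 symbol, 0 with several, 8730 with none), and 13747 of the symbols were brought up to date by gene number from the GRCr8 annotation.

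The chaperone genes, the lists and the named genes were chosen with earlier results of these data known. Named genes were every member past the threshold, Dnajb1 and Hspb7, the brightest tested probe of each gene family, and up to 3 of each wider list. Hspb1, Hspb2, Hspb8, Dnaja1, Dnaja3, Dnajb4, Dnajc15, Dnajc17, Hspbap1, Cct3, Cct8l2, Cryab, Fkbp5, Sgta, the remaining HSP70 relatives and the remaining Bag and partner genes were named after their values were seen. The alternatives were median scaling or cyclic loess between arrays, no background correction or normexp (offset 50), the deposited log2 table, array weights, trend and robust variances, no filter or a detection p under 0.01 on every array, the replicate number as a block, an adjusted p threshold of 0.01, platform symbols, and leaving out each array. No test of the gene set as a whole was made.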

Additional observations from a re-analysis of the deposited data

Results flagged for a closer look

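Over the 21 chaperone genes examined by heart, 3 of 42 groups of 6 hearts had a value set far from the other 5, and chance alone gives about 1 in 20. Hspb8 and Hspb2 were among the genes chosen after their values were seen, and Hspb8 holds 2 of the 3 values, so the count cannot be read against that share. Dnaja4 was lowest in WT heart 4, at 12.15, with the other WT hearts between 12.40 and 12.54. Hspb8 was highest in TG heart 1, at 11.80, with the other TG hearts between 11.49 and 11.60. It was also lowest in WT heart 5, at 11.65, with the other WT hearts between 11.78 and 11.84.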

How the results depend on the processing

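Hspb3, Dnajb6, Hsf4 and Hspa12b kept their call under every alternative that tested them, and Bag2 under all but median scaling and the threshold of 0.01. Over the 21 chaperone genes examined by heart, 378 results kept direction and side of the threshold, 62 lost the call, 19 gained it and 1 turned. Other genes named in the text were not part of this count. The turned one was Hspa9, which lay between -0.0036, without WT heart 6, and 0.0706, without WT heart 3, when each array was left out. The chaperone probes higher in TG numbered 1 without a filter, with array weights and at a threshold of 0.01, and 1 to 2 without each array. Those lower in TG numbered 3 with median scaling and 3 at a threshold of 0.01, and 5 to 9 without each array, the 5 without WT heart 4. With median scaling the Dnajb1 difference was -0.51 (exact permutation p = 0.0931), that of Hspb7 was -0.20 (exact p = 0.0823), and the median r with Dnajb1 was 0.85 in TG and 0.67 in WT hearts. Without each array the Dnajb1 difference lay between -0.70 and -0.46, that of Hspb7 between -0.22 and -0.17, and the median r between 0.28 and 0.54 in TG and between -0.27 and 0.25 in WT hearts. The cause of these changes was not tested. The median difference of the small heat shock proteins lay between -0.21 and -0.19 under the background and scaling alternatives, and no role group's median changed sign. With the replicate number as a block 8 were lower and 2 higher, with a median difference of -0.07. Hspb7 (limma, adjusted p = 0.0734), Dnajc19 (0.0717) and Dnajc21 (0.0591) were then not called, while Hspb2 (0.0454) and Hspbap1 (0.0423) were called lower. Hearts of the same number correlated between -0.14 and 0.23 in their deviations from the group means, and 3 of 6 numbers matched best with themselves. These values do not settle whether the numbers mark pairs. The main fit left the hearts unpaired, as the sample titles give only the group and a number. Signal near background limits Dnajc28, Hsf4, Ppp5c and the 18 untested probes. The sizes of the Bag2, Hsp90aa1 and Hspbap1 differences also depended on the background correction.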
